A study of Mus musculus with 6 samples.

Results

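The regions described here are the DpnII fragments of mouse chromosome 3 that lie more than 5 Mb from the Sox2 control region (SCR) bait on its centromeric side, the side of lower coordinates. The bait position is 34660500 (mm9), so the members are fragments with a midpoint below 29660500. They number 70416 of the 391360 fragments listed for each SCR library, and they were chosen by position alone. The whole series holds 6 4C libraries from 3 baits, and 3 of these used the SCR. 1 library came from neural precursor cells (NPC), obtained from mouse embryonic stem (ES) cells by 6 days without LIF, with 5 μM retinoic acid over the last 4 days. 2 libraries came from undifferentiated J1 ES cells, passaged off feeder cells before use. All 3 carried no genetic change and were fixed with 2% formaldehyde for 10 min. The labels give J1 as the source of the NPC culture too, whereas the study's methods give F1 ES cells. By those methods the F1 cells were grown before differentiation without feeder cells and with added inhibitors (2i conditions). Cell line, earlier culture and cell state therefore cannot be told apart here. The study describes the ES libraries as biological replicates, and the sources used here do not say how the cultures were kept apart.

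4C reads out which fragments of a chromosome were ligated to 1 chosen fragment, the bait, after fixation and digestion of chromatin. Contacts of any bait thin out with genomic distance, and over megabases what is left tends to fall within chromatin of the same kind, gene-rich and active regions meeting one another more often than gene-poor ones. The SCR is a distal enhancer of Sox2, a transcription factor of pluripotent and neural stem cells, and it is active in ES cells. At these distances most fragments have no read, so the measure used is the detected share, the percentage of fragments in a bin of the chromosome with at least 1 read.

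The fragments that carried reads in all 3 libraries show the material behind every count below, since each is identified by a read of 27 nt from one of its ends. Of the 70416 members, 13 had reads in all 3 libraries. The 6 printed here are those of the 13 in the introns of Tbl1xr1 and in or next to Zfp704. These are the genes of 2 small bins, high for their distance, described below. The rest of the 13 lie at other places. The fragment from 12675439, for example, lies 1100.5 kb from the nearest gene, Ralyl. The printed fragments thus do not show where fragments with reads in all 3 libraries tend to lie. Each line gives the left end of 1 fragment, 5′ to 3′ on the plus strand of mm9, with the DpnII site in capitals.
Tbl1xr1 intron, chr3:22086398-22086470: GATCctagcactcagcagtcagaggca
Tbl1xr1 intron, chr3:22009209-22009885: GATCttaaaagtttcatgcagaggtct
Tbl1xr1 intron, chr3:22050805-22051057: GATCcaaatgttggttatctcataggt
Zfp704 intron, chr3:9597767-9597936: GATCcatagataaatggctggctgctt
Zfp704 intron, chr3:9599998-9600493: GATCctgggttgtgttgcttccccttt
1.45 kb beyond Zfp704, chr3:9611536-9611632: GATCtcatgagatgatttggagagagg
Each of these ends occurs 1 time in mm9. The Tbl1xr1 fragment from 22086398 had 4 reads in NPC, 7342 in ES replicate 1 and 143 in ES replicate 2. The Zfp704 fragment from 9597767 had 2 reads in NPC, 3807 in ES replicate 1 and 1 in ES replicate 2. The Zfp704 fragment from 9599998, about 2 kb away, had 1 read in NPC, 1 in ES replicate 1 and 908 in ES replicate 2. Read numbers on a single distant fragment thus differed by orders of magnitude between the replicates of 1 cell type, which is why fragments with reads were counted in preference to reads.

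The libraries shared detected fragments unevenly, and this touches every comparison that follows. NPC and ES replicate 1 had 348 detected members in common, 28.0% of the NPC set and 55.2% of the ES replicate 1 set. NPC and ES replicate 2 had 43 in common (3.46% and 4.62%), and the ES replicates 23 (3.65% of replicate 1 and 2.47% of replicate 2). Of all members, 1.76% were detected in NPC, 0.896% in ES replicate 1 and 1.32% in ES replicate 2. In every pair the shared percentage of 1 library's set thus exceeded the other library's share over all members. Most of the fragments shared by NPC and ES replicate 1 carried few reads, with a median of 4 in NPC and 2 in ES replicate 1, and 275 of the 348 had under 100 reads in both. Of the 48 members with at least 1000 reads in ES replicate 1, 41 also had NPC reads, with a median of 3, and 4 had reads in ES replicate 2. Of the 39 members with at least 1000 reads in ES replicate 2, 2 had NPC reads. When at least 10 reads were asked of both libraries, each of the 3 pairs shared 4 fragments. On the telomeric side beyond 5 Mb the pairs behaved alike, with 795 fragments shared by NPC and ES replicate 1 against 127 and 84 for the other pairs. The cause of the sharing was not tested. Several results are therefore also given for fragments with at least 10 reads, and with the shared fragments left out of both libraries. These are the calls of 1 Mb bins and of 0.5 Mb bins above trend, the gene lists, the likeness of libraries and the tests on detected fragments. Other values are for fragments with at least 1 read unless stated.

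**Figure D1:**
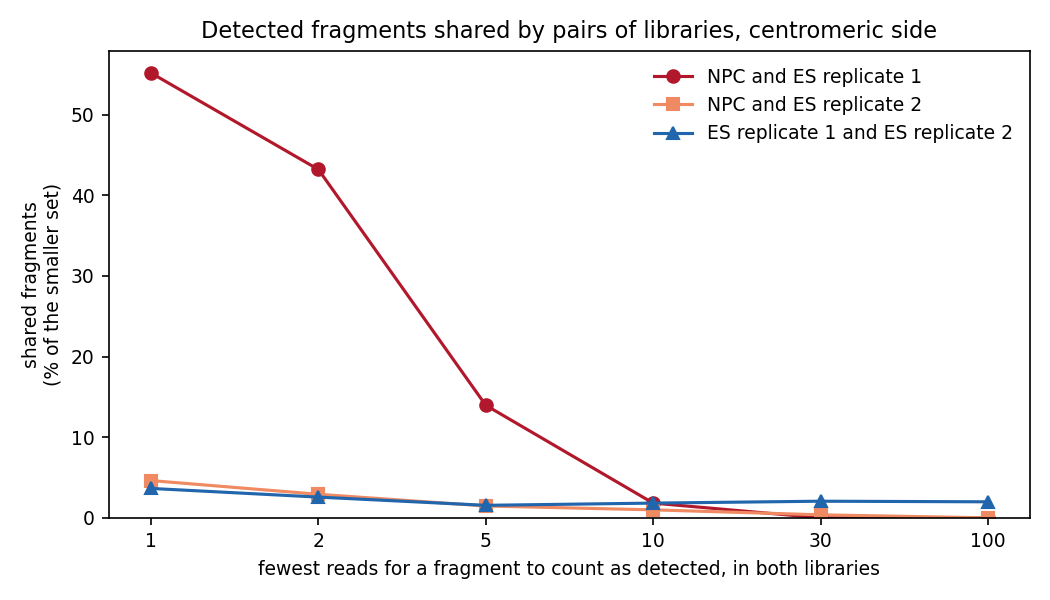
Detected members shared by pairs of libraries, as a percentage of the smaller set (vertical axis), against the fewest reads asked of a fragment in both libraries (horizontal axis, steps not to scale). NPC and ES replicate 1 share 55.2% of the smaller set at 1 read and 1.83% at 10 reads, where the other pairs stand at 0.99% and 1.83%.

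Distant centromeric contacts were sparse in all 3 libraries. The NPC library had reads on 1241 members, a detected share of 1.76% (Wilson 95% interval 1.67% to 1.86%), and 121021 of its 2889643 reads lay there. ES replicate 1 had reads on 631 members, or 0.896% (0.829% to 0.968%), with 207459 of 6447786 reads. ES replicate 2 had reads on 931 members, or 1.32% (1.24% to 1.41%), with 134404 of 3915756 reads. The deepest library thus detected the fewest fragments, and the 10 fragments with most reads held 29.6% of the NPC reads on this side, 31.8% of those of ES replicate 1 and 24.2% of those of ES replicate 2. Such intervals cover counting error only, because reads of 1 ligation copied by PCR cannot be told from independent ones. With at least 10 reads the detected members numbered 404 in NPC, 219 in ES replicate 1 and 466 in ES replicate 2, so the order of NPC and ES replicate 2 depended on the read minimum. The shares of the whole side were not tested between NPC and ES cells.

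The centromeric side was detected less often than the telomeric side at matched distances in each library. Over the 66331 telomeric fragments the shares were 2.12% in NPC, 1.05% in ES replicate 1 and 1.58% in ES replicate 2. Part of this went with sequence, since 52927 of the members have an end found only once in mm9 and the other 17489 were rarely detected (0.332% in NPC, 0.183% in ES replicate 1, 0.137% in ES replicate 2). Among fragments with such a unique end the shares were 2.24% on the centromeric side against 2.57% on the telomeric side in NPC, 1.13% against 1.26% in ES replicate 1 and 1.71% against 1.92% in ES replicate 2.

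The detected share fell with distance in every library. The fitted trend gave an expected share of 2.32% at 10 Mb and 1.5% at 20 Mb in NPC, 1.21% and 0.742% in ES replicate 1, and 1.88% and 1.03% in ES replicate 2. Between these distances the expected share was thus 1.55-fold lower in NPC, 1.63-fold lower in ES replicate 1 and 1.82-fold lower in ES replicate 2. From here on each bin is described by its observed over its expected share, so that 1 is the value its distance alone would give. A bin was called above trend where the lower bound of its Wilson 95% interval exceeded the expected share, and for ES cells this had to hold in both replicates; bins below trend were called in the same way from the upper bound. This is a rule of description and not a test between groups.

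**Figure D2:**
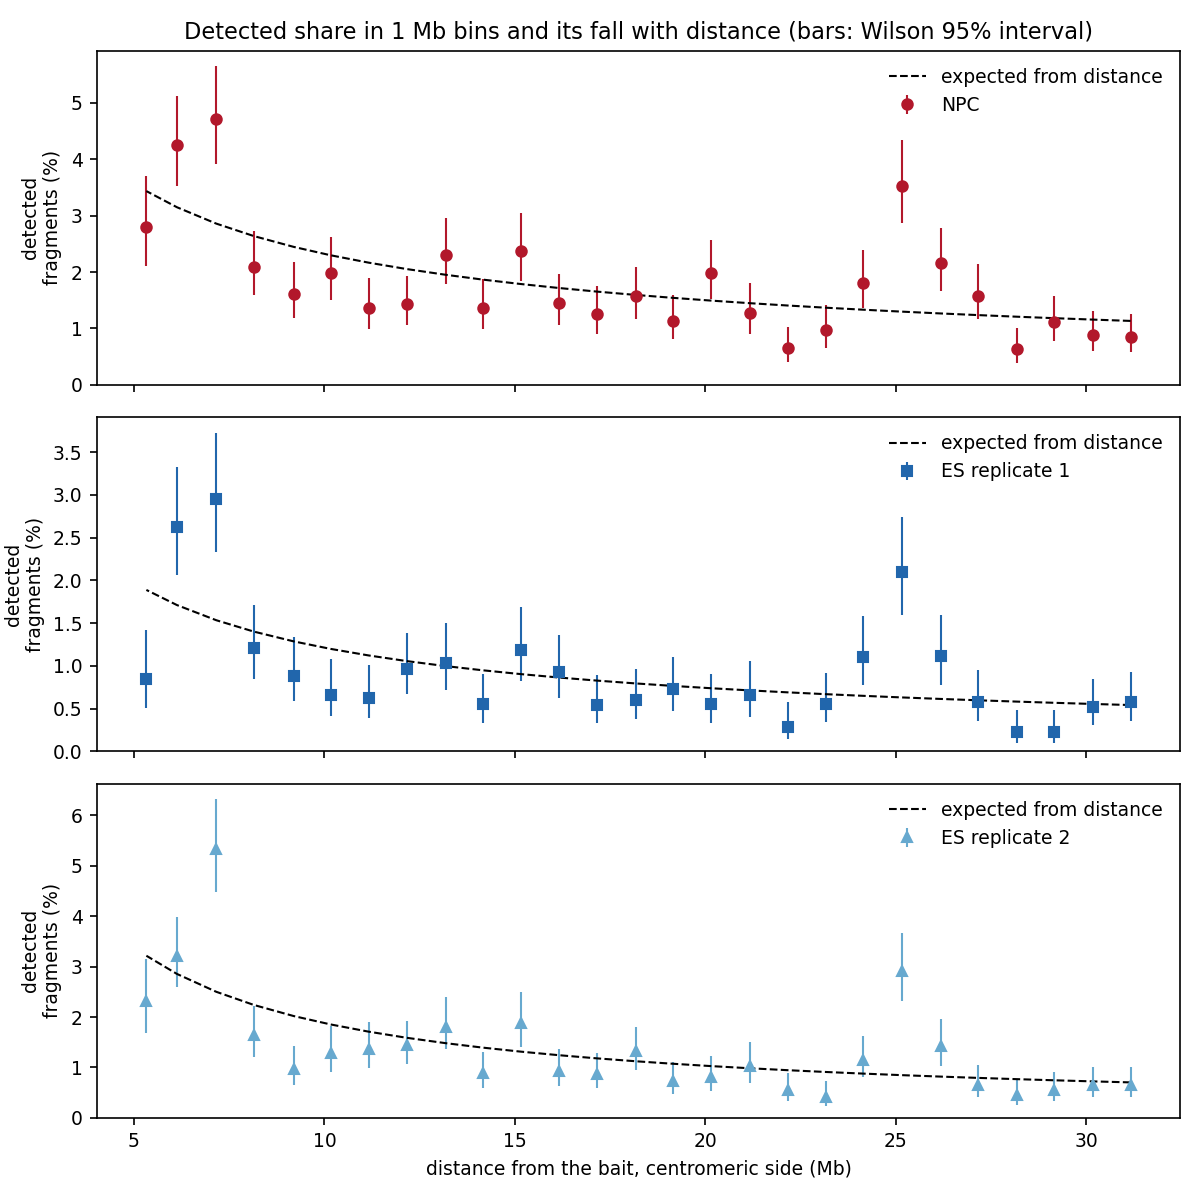
Detected share in percent (vertical axis) of each 1 Mb bin against its distance from the bait in Mb on the centromeric side (horizontal axis), 1 panel per library, with Wilson 95% intervals as bars and the expected share as a dashed line. The bin at 25.1 Mb stands far above the line in all 3 panels, at 3.53% in NPC, 2.09% in ES replicate 1 and 2.91% in ES replicate 2.

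Relative to distance, contacts on this side were densest in both cell states 24 to 26 Mb from the bait, around Zfp704, Zbtb10, Tpd52 and Pag1. In the bin from 9 to 10 Mb of the chromosome, 86 of 2437 fragments were detected in NPC, 51 in ES replicate 1 and 71 in ES replicate 2. Observed over expected was 2.72 in NPC, 3.32 in ES replicate 1 and 3.44 in ES replicate 2, the highest of the 27 bins in each library. This bin holds genes for the zinc finger proteins Zfp704 and Zbtb10 (a transcriptional repressor of the BTB family), for the membrane adaptor Pag1, which recruits the kinase Csk, and the 5′ part of Tpd52, a vesicle trafficking protein. The bin before it, from 8 to 9 Mb, with Stmn2 (a neuronal regulator of microtubules), Hey1 (a repressor downstream of Notch), Mrps28 (a mitochondrial ribosomal protein) and the rest of Tpd52, stood at 1.70 in NPC, 1.82 in ES replicate 1 and 1.74 in ES replicate 2.

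The other pronounced rise lay about 7 Mb from the bait. In the bin from 27 to 28 Mb, 107 of 2273 fragments were detected in NPC, 67 in ES replicate 1 and 121 in ES replicate 2. Observed over expected was 1.65 in NPC, 1.92 in ES replicate 1 and 2.13 in ES replicate 2. The detected share was 4.71% in NPC, 2.95% in ES replicate 1 and 5.32% in ES replicate 2. In each library this exceeded the share of the bin from 9 Mb, which lies farther from the bait. The genes of the bin from 27 Mb are Ect2, which acts in cytokinesis, Nceh1, a neutral cholesterol ester hydrolase, Tnfsf10, which encodes the death ligand TRAIL, the ghrelin receptor gene Ghsr, Fndc3b, Tmem212 and the phospholipase D gene Pld1.

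ES cells had 3 of the 27 bins above trend in both replicates (those from 8, 9 and 27 Mb), whereas 12.8% of the 148 distant bins of both sides met the same rule. NPC had 7 of 27 above trend, from 8, 9, 10, 14, 19, 27 and 28 Mb, where 22.3% of all distant bins did. All 3 ES bins were among the 7 NPC bins. Both shares of called bins on this side were thus near those of the whole chromosome, and the NPC rule rested on 1 library. With at least 10 reads, the ES bins above trend were again those from 8, 9 and 27 Mb (10.1% of all distant bins), and the NPC bins were those from 8, 9 and 28 Mb (11.5%). With the shared fragments left out, the ES bins from 9 and 27 Mb and the NPC bins from 8, 9, 14, 27 and 28 Mb were called, against 6.76% and 20.3% of all distant bins. The ES bin from 8 Mb was lost there, with 10 fragments detected in ES replicate 1 and an observed over expected value of 1.40.

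**Figure D3:**
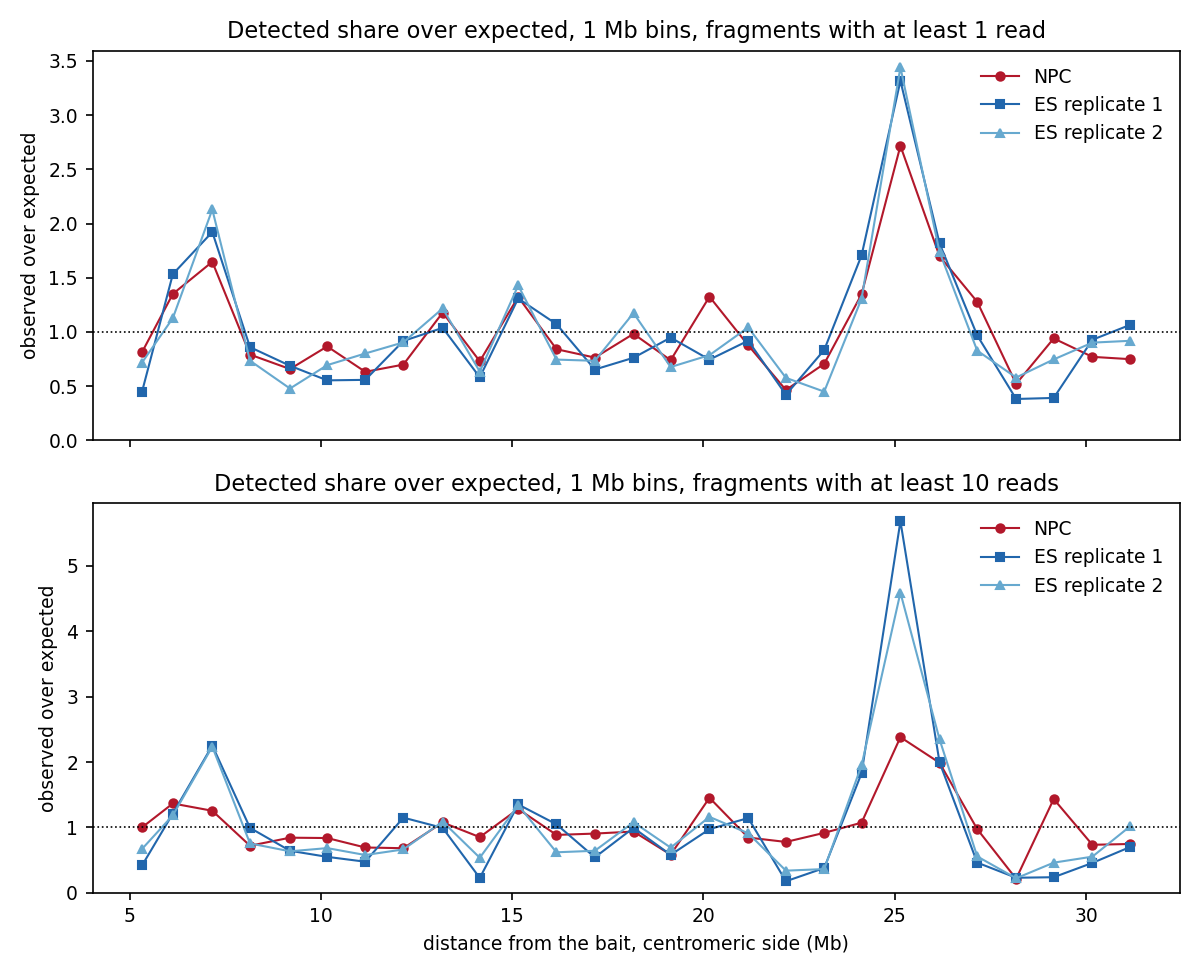
Observed over expected detected share (vertical axis) of the 27 bins of 1 Mb against distance from the bait in Mb (horizontal axis) for NPC, ES replicate 1 and ES replicate 2, with fragments of at least 1 read in the upper panel and of at least 10 reads in the lower. The peak at 25.1 Mb reaches 2.72 in NPC, 3.32 in ES replicate 1 and 3.44 in ES replicate 2 in the upper panel, and 2.38, 5.68 and 4.59 in the lower; the peak at 7.16 Mb stays near 2 in both ES replicates in both panels.

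Bins of 0.5 Mb placed the first zone between 8.5 and 10.5 Mb and the second between 27 and 28 Mb. From 8.5 to 10.5 Mb, which is 6.85% of the members, the libraries had 160 detected fragments in NPC, 93 in ES replicate 1 and 116 in ES replicate 2, and observed over expected was 2.55, 3.06 and 2.84. The part with Zbtb10 and the 3′ part of Zfp704, from 9 to 9.5 Mb, stood highest of the 54 bins in all 3 libraries, at 2.99 in NPC, 4.18 in ES replicate 1 and 3.52 in ES replicate 2. Of 54 bins, ES cells had 7 above trend (9.86% of all distant bins of this size), from 8.5, 9, 9.5, 10, 21.5, 27 and 27.5 Mb. NPC had 9 (17.7%), the same 7 and those from 14.5 and 28 Mb. The bin from 21.5 Mb ends inside Tbl1xr1, a subunit of the NCoR and SMRT corepressor complexes, and stood at 1.63 in NPC, 1.63 in ES replicate 1 and 1.92 in ES replicate 2. The bin before it, from 21 Mb, stood at 0.78 in NPC, 0.51 in ES replicate 1 and 0.59 in ES replicate 2, and the bin of 1 Mb that joins them was not called. At a minimum of 10 reads 5 bins of 0.5 Mb were above trend in ES cells, without those from 10 and 21.5 Mb, and 6 in NPC (from 8.5, 9, 9.5, 10, 14.5 and 19 Mb). The bin from 21.5 Mb then stood at 1.14 in NPC, 1.39 in ES replicate 1 and 1.64 in ES replicate 2. With the shared fragments left out 6 were above trend in ES cells, without that from 8.5 Mb, and 8 in NPC, without that from 28 Mb. For either setting the share over all distant bins of this size is not available here. These numbers are therefore not set beside the whole chromosome.

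Bins of 100 kb placed contacts at Tbl1xr1 and in the zone of Zfp704 more finely. The bin from 22.0 Mb, within Tbl1xr1, had 12 of 212 fragments detected in NPC, 12 in ES replicate 1 and 21 in ES replicate 2, or 2.82, 5.50 and 6.44 times the expected share. The bin from 9.6 Mb, at the start of Zfp704, had 13 of 244 fragments detected in NPC, 7 in ES replicate 1 and 16 in ES replicate 2, or 4.09, 4.53 and 7.71 times the expected share. Most of this bin lies outside the gene. In NPC and ES replicate 1 it was not the highest of its zone. The bin from 8.9 Mb stood at 4.78 in NPC, 7.23 in ES replicate 1 and 3.44 in ES replicate 2. In the same order, the bin from 10.3 Mb stood at 4.63, 7.46 and 3.52. These bins are named after their values were seen.

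Fewer contacts than expected were found in stretches with few genes. From 10.5 to 14.5 Mb, observed over expected was 0.701 in NPC, 0.715 in ES replicate 1 and 0.679 in ES replicate 2. From 22.5 to 27 Mb, which holds the long gene of the synaptic adhesion protein Nlgn1, it was 0.692 in NPC, 0.640 in ES replicate 1 and 0.663 in ES replicate 2. The lowest 3 bins by their mean over the libraries began at 12, 6 and 25 Mb. The bin from 12 Mb holds no protein-coding gene and stood at 0.46 in NPC, 0.42 in ES replicate 1 and 0.58 in ES replicate 2. The bin from 6 Mb holds only 1700008P02Rik, and the bin from 25 Mb only Nlgn1, with 0.66 in NPC, 0.69 in ES replicate 1 and 0.48 in ES replicate 2.

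NPC had 5 of 27 bins below trend (from 6, 12, 22, 23 and 25 Mb), where 18.9% of all distant bins were called. ES cells had 4 (from 12, 20, 24 and 29 Mb), where 9.46% were called. Only the bin from 12 Mb was in both sets. At 0.5 Mb the numbers were 8 of 54 in NPC (12.6% of all distant bins) and 2 in ES cells (2.38%). At a minimum of 10 reads only the bin from 6 Mb was called in NPC (6.08%) and only that from 20 Mb in ES cells (2.03%). With the shared fragments left out 6 were called in NPC (14.2%) and 2 in ES cells (2.7%). With at least 10 reads ES replicate 1 had 1 fragment in the bin from 12 Mb, or 0.18 times the expected share, and the bin was not called. Where so few fragments are counted the rule can seldom call a bin below trend. The loss of calls therefore does not show how sharply the depleted stretches are defined.

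Relative to distance, gene windows also placed the densest contacts around Tpd52 and Zfp704, with an order of the other places that differed from that of the bins. Around each of the 82 protein-coding gene entries of GENCODE vM1 on this side, the fragments from 100 kb before to 100 kb after the gene were pooled; neighbouring windows overlap, so genes are not independent. The median over the 82 windows was 1.36 in NPC, 1.19 in ES replicate 1 and 1.37 in ES replicate 2, and 59 of 82 stood above 1 in NPC and 40 in both ES replicates. The median over all windows at a minimum of 10 reads was 1.42 in NPC, 1.24 in ES replicate 1 and 1.29 in ES replicate 2, and with the shared fragments left out 1.33, 1.26 and 1.37. The lists below were drawn up with these data known, and many of their genes lie in bins above trend, so a list's median above that of all windows restates this choice. The highest window in NPC and ES replicate 1 was that of Tpd52, with 33 of 672 fragments detected in NPC, 23 in ES replicate 1 and 21 in ES replicate 2, or 3.83, 5.51 and 3.76 times the expected share. The highest in ES replicate 2 was that of Zfp704, with 39 of 877 fragments in NPC, 23 in ES replicate 1 and 34 in ES replicate 2, or 3.42, 4.16 and 4.58 times. Both genes stood above 3 in each library.

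Of a list of genes of the cell cycle and of transcription, 8 of 9 lie on this side. Their median was 2.13 in NPC, 2.02 in ES replicate 1 and 2.12 in ES replicate 2, and 7 of 8 stood above 1 in NPC and 6 of 8 in both ES replicates, against 59 and 40 of all 82 windows. The median at a minimum of 10 reads was 2.03 in NPC, 2.33 in ES replicate 1 and 2.09 in ES replicate 2, and with the shared fragments left out 1.90, 1.66 and 2.12. Tbl1xr1 stood at 1.95 in NPC, 2.65 in ES replicate 1 and 2.85 in ES replicate 2. Ect2 stood at 1.93 in NPC, 2.38 in ES replicate 1 and 2.24 in ES replicate 2. Ythdf3, which encodes a reader of N6-methyladenosine in RNA, stood at 1.41 in NPC, 1.51 in ES replicate 1 and 1.88 in ES replicate 2. Hnf4g, a nuclear receptor gene near the centromeric end of the assembly, stood at 0.70 in NPC, 0.91 in ES replicate 1 and 0.70 in ES replicate 2.

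All 11 genes of the signalling and growth list lie on this side. Their median was 1.71 in NPC, 1.92 in ES replicate 1 and 1.99 in ES replicate 2, and 10 stood above 1 in NPC and 9 in both ES replicates, against 59 and 40 of all 82 windows. The median at a minimum of 10 reads was 1.58 in NPC, 1.42 in ES replicate 1 and 2.30 in ES replicate 2, and with the shared fragments left out 1.62, 1.70 and 1.99. Fndc3b had 53 of 1090 fragments detected in NPC, 32 in ES replicate 1 and 63 in ES replicate 2, or 1.71, 1.92 and 2.32 times the expected share. Pld1 stood at 1.71 in NPC, 1.93 in ES replicate 1 and 1.59 in ES replicate 2. Slc2a2, which encodes the glucose transporter GLUT2, stood at 1.65 in NPC, 1.99 in ES replicate 1 and 2.19 in ES replicate 2. Agtr1b, an angiotensin receptor gene, stood below 1 in all 3 libraries, at 0.63 in NPC, 0.47 in ES replicate 1 and 0.85 in ES replicate 2. Il7, which encodes the cytokine interleukin 7, stood at 1.90 in NPC, 1.21 in ES replicate 1 and 0.91 in ES replicate 2.

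Of the 5 genes on a list named long neuronal genes, 4 lie on this side, with medians of 0.913 in NPC, 0.889 in ES replicate 1 and 0.787 in ES replicate 2. The medians at a minimum of 10 reads were 1.76 in NPC, 1.20 in ES replicate 1 and 0.817 in ES replicate 2, and with the shared fragments left out 1.01, 1.15 and 0.787, so their side of 1 depended on the fragments counted. Nlgn1 had 41 of 2087 fragments detected in NPC, 20 in ES replicate 1 and 23 in ES replicate 2, or 0.79, 0.73 and 0.54 times the expected share. Ralyl stood at 0.80 in NPC, 1.04 in ES replicate 1 and 0.75 in ES replicate 2. Stmn2, beside the zone of Zfp704, spans only 52.1 kb despite the name of the list. It stood at 1.52 in NPC, 1.45 in ES replicate 1 and 1.63 in ES replicate 2. Zfhx4, a zinc finger homeobox gene, had 12 of 989 fragments detected in NPC, 2 in ES replicate 1 and 6 in ES replicate 2, or 1.03, 0.36 and 0.82 times the expected share.

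For the fatty acid-binding protein cluster (Fabp5, Pmp2, Fabp9, Fabp4 and Fabp12) the median was 1.30 in NPC, 1.36 in ES replicate 1 and 1.73 in ES replicate 2. Fabp12 was highest of the cluster, at 2.63 in NPC, 4.05 in ES replicate 1 and 2.80 in ES replicate 2. Its window takes in the 100 kb bin from 10.3 Mb, where Impa1, Slc10a5, Zfand1 and Chmp4c lie. That bin stood at 4.63 in NPC, 7.46 in ES replicate 1 and 3.52 in ES replicate 2. The window of Zfand1, outside the cluster, was higher than that of Fabp12, at 3.03, 4.59 and 3.16. The rise near Fabp12 is therefore not particular to the cluster. The cluster's median at a minimum of 10 reads was 2.25 in NPC, 1.18 in ES replicate 1 and 2.77 in ES replicate 2, and with the shared fragments left out 1.33, 1.52 and 1.73. For the carbonic anhydrase cluster (Car13, Car1, Car3 and Car2, enzymes that hydrate carbon dioxide) it was 1.69 in NPC, 0.974 in ES replicate 1 and 1.05 in ES replicate 2. All 4 stood above 1 in NPC and 1 of 4 did so in both ES replicates. The median at a minimum of 10 reads was 2.05 in NPC, 1.91 in ES replicate 1 and 1.51 in ES replicate 2, so that ES cells too were above 1, and with the shared fragments left out it was 1.83, 0.544 and 1.05.

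**Figure D4:**
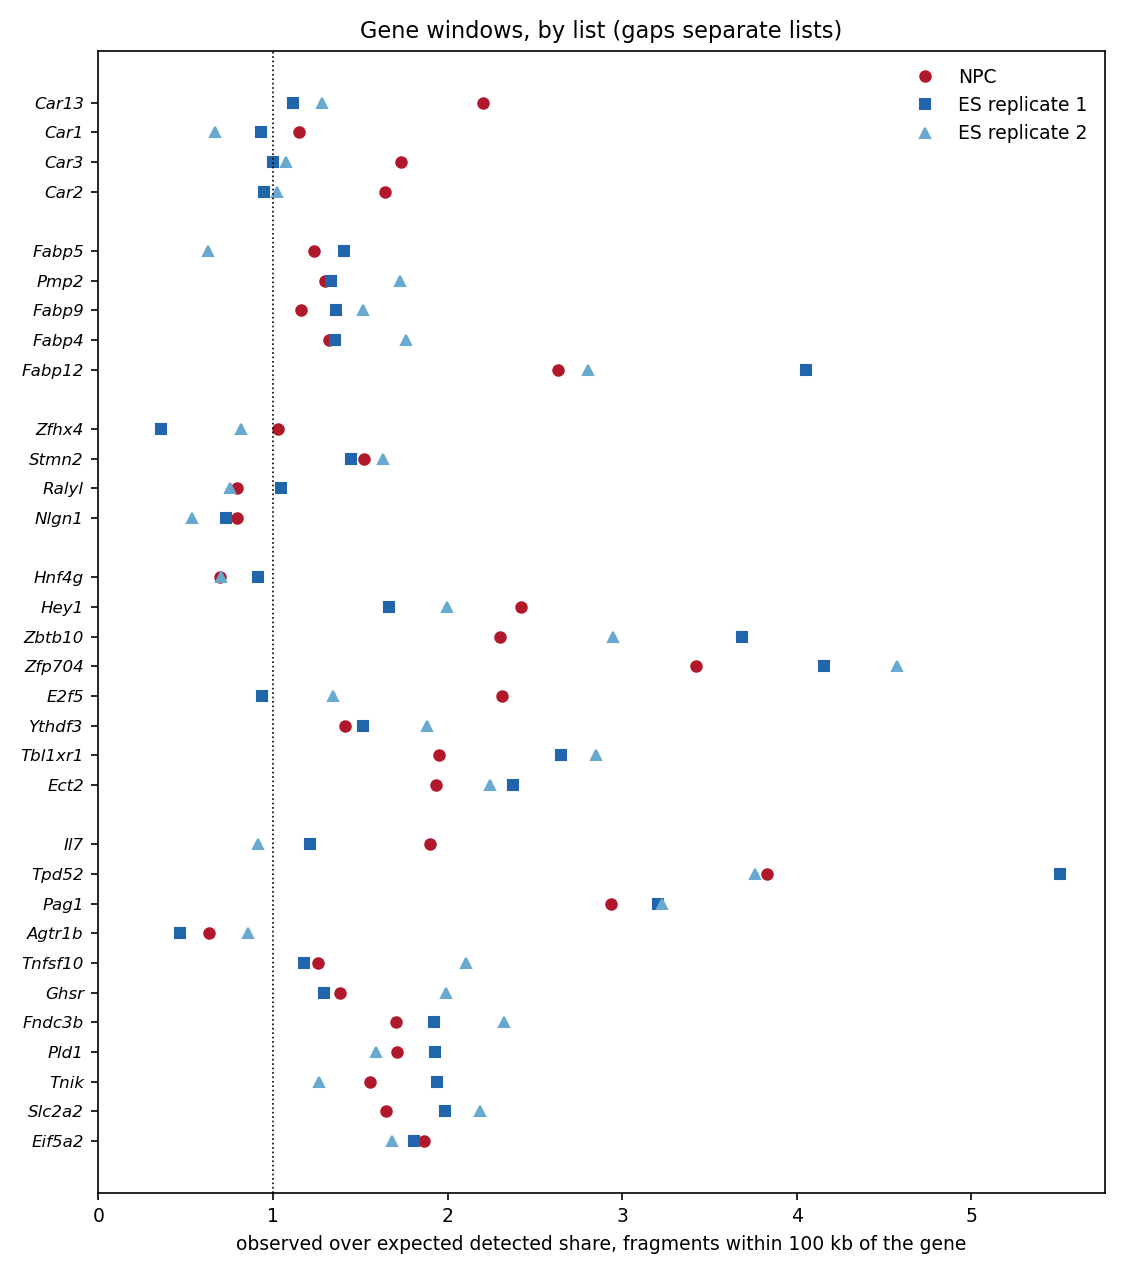
Observed over expected detected share (horizontal axis) of the fragments within 100 kb of each listed gene (rows, in chromosome order within each list) in NPC, ES replicate 1 and ES replicate 2; the dotted line marks 1. The windows of Tpd52 and Zfp704 stand above 3 in all libraries, and the 4 carbonic anhydrase genes above 1 in NPC, at 1.15 to 2.20.

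Fragments in or near genes were detected more often than distance predicted. Fragments in protein-coding genes stood at 1.35 in NPC, 1.39 in ES replicate 1 and 1.35 in ES replicate 2, and fragments outside them at 0.883, 0.863 and 0.868. Within 10 kb of a gene start the values were 1.76 in NPC, 2.09 in ES replicate 1 and 1.83 in ES replicate 2. With at least 10 reads they were 1.31 in NPC, 2.37 in ES replicate 1 and 2.04 in ES replicate 2, so at that minimum the ES replicates both exceeded NPC, a difference that was not tested. Near gene starts, fragments of unique end stood at 1.60 in NPC, 1.92 in ES replicate 1 and 1.66 in ES replicate 2. In the same order, fragments of unique end stood at 1.25, 1.29 and 1.27 in genes and at 0.905, 0.884 and 0.886 outside them.

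Base composition moved with the profile. Across the 27 bins, log2 of observed over expected correlated with GC content at r = 0.78 in NPC, 0.80 in ES replicate 1 and 0.81 in ES replicate 2 (Spearman 0.66, 0.72 and 0.64), and with protein-coding genes per Mb at r = 0.55, 0.45 and 0.38 (Spearman 0.60, 0.43 and 0.35). With at least 10 reads the correlation with GC content was 0.55 in NPC, 0.75 in ES replicate 1 and 0.78 in ES replicate 2. In the same order, that with genes per Mb was 0.40, 0.40 and 0.50. The bins from 9 and 27 Mb had a GC content of 44.5% and 44.7%, and the bin from 12 Mb had 38.7%. Bins are not replicates, and GC content, gene number and the share of fragments with a unique end also moved together, so these values are descriptions. With fragments of unique end alone the correlation with GC content was 0.77 in NPC, 0.78 in ES replicate 1 and 0.82 in ES replicate 2, and the same 3 bins were above trend in ES cells. The bin from 9 Mb then stood at 2.38 in NPC, 2.96 in ES replicate 1 and 2.99 in ES replicate 2. In the same order, the bin from 27 Mb stood at 1.42, 1.68 and 1.86. The part of GC content in the profile, through amplification or otherwise, was not tested.

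The profile of NPC followed that of ES cells closely when all detected fragments were counted. Over the 27 bins, log2 of observed over expected correlated at r = 0.81 between NPC and ES replicate 1 (Spearman 0.68), 0.86 between NPC and ES replicate 2 (0.79) and 0.82 between the ES replicates (0.77). Without the 3 bins above trend in ES cells the values were 0.64, 0.71 and 0.64. All libraries share the same fragments, base composition and bait, and NPC and ES replicate 1 also share the detections described above. With at least 10 reads the ES replicates were more alike (r = 0.92) than NPC was to replicate 1 (0.59) or to replicate 2 (0.75). With the shared fragments left out the values were 0.53 for NPC and ES replicate 1, 0.82 for NPC and ES replicate 2, and 0.69 for the ES replicates.

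With the fall with distance taken out, no bin of this side differed between NPC and ES cells past the threshold. In edgeR's quasi-likelihood test on detected fragments, with each library's trend as offset, 0 of 27 bins were higher and 0 lower in NPC, as were 0% of the 146 distant bins tested, and 1 bin of this side had an unadjusted p under 0.05. With the shared fragments left out, this test called 0 of 27 bins higher and 0 lower in NPC, against 0 higher and 1 lower of 145 distant bins. At an unadjusted p under 0.05 the bin from 14 Mb was then higher and the bin from 27 Mb lower. Residual variation could be estimated between the 2 ES replicates alone, and NPC, with 1 library, was assumed to vary as they did. On read sums 0 of 27 bins passed as well, where 0.676% of 148 distant bins were higher and 0.676% lower in NPC; 1 bin of this side, the bin from 22 Mb that holds most of Tbl1xr1, had an unadjusted p under 0.05, with 2700 reads in NPC, 26859 in ES replicate 1 and 6366 in ES replicate 2. DESeq2 was run with its own scaling and without the distance trend. It called 0 of the 27 bins on detected fragments and 0 on reads, with 1 and 3 at an unadjusted p under 0.05. Over all distant bins it called 0 of 146 on detected fragments, and 12 higher and 1 lower in NPC of 148 on reads. On reads scaled by library totals with no trend, edgeR called 3 bins lower in NPC, those from 9 Mb (log2 change -1.71, adjusted p = 0.0457), 22 Mb (-2.79, adjusted p = 0.0070) and 27 Mb (-1.65, adjusted p = 0.00226). Over all 148 distant bins this setting called 1 higher and 4 lower in NPC.

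The bin with the smallest p on detected fragments was that of the carbonic anhydrase genes and E2f5. From 14 to 15 Mb, 54 of 2727 fragments were detected in NPC, 15 in ES replicate 1 and 22 in ES replicate 2, or 1.33, 0.75 and 0.79 times the expected share. The log2 change of NPC over ES was 0.78 (SE 0.34; edgeR adjusted p = 0.699). From 14.5 to 15 Mb 37 fragments were detected in NPC, 10 in ES replicate 1 and 14 in ES replicate 2, or 1.87, 1.02 and 1.03 times the expected share. From 14 to 14.5 Mb the values were 0.81 in NPC, 0.48 in ES replicate 1 and 0.56 in ES replicate 2. At a minimum of 10 reads that part stood at 0.79, 0.32 and 0.76, from 5, 1 and 5 fragments. The bin was picked for its small p, so the values of its parts give no further support. E2f5, a transcription factor of the E2F family that acts with the retinoblastoma-related proteins, stood at 2.31 in NPC, 0.94 in ES replicate 1 and 1.35 in ES replicate 2. With at least 10 reads the values from 14.5 to 15 Mb were 2.16 in NPC, 1.66 in ES replicate 1 and 1.59 in ES replicate 2, and the log2 change of the bin from 14 Mb was 0.40 (SE 0.25; edgeR adjusted p = 0.754). With the shared fragments left out it was 1.05 (SE 0.35; edgeR adjusted p = 0.192).

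The zones of Zfp704 and of Fndc3b leaned the other way, and more so on fragments with many reads. For the bin from 9 Mb the log2 change of NPC over ES was -0.32 (SE 0.24; edgeR adjusted p = 0.851), and with at least 10 reads it was -1.05 (SE 0.20; edgeR adjusted p = 0.155). There 22 fragments were detected in NPC, 25 in ES replicate 1 and 42 in ES replicate 2, or 2.38, 5.68 and 4.59 times the expected share. Around Zfp704 the counts at this minimum were 9 in NPC, 15 in ES replicate 1 and 25 in ES replicate 2, or 2.71, 9.48 and 7.59 times the expected share. For the bin from 27 Mb the log2 change was -0.32 (SE 0.20; edgeR adjusted p = 0.851), and with at least 10 reads -0.83 (SE 0.12; edgeR adjusted p = 0.115), with 30 fragments in NPC, 33 in ES replicate 1 and 71 in ES replicate 2. Both ES replicates stood above NPC in these bins, but in edgeR 0 of the 26 bins tested at this minimum passed the adjusted threshold (0% of 104 distant bins), with 1 higher and 2 lower in NPC at an unadjusted p under 0.05, and the minimum of 10 reads was put to this test after the sharing of fragments was seen. The bin higher in NPC at this minimum was that from 5 Mb, which holds Zfhx4, Pxmp3 (a peroxisome assembly gene) and Gm10748, with 13 fragments in NPC, 1 in ES replicate 1 and 4 in ES replicate 2, and a log2 change of 1.84 (SE 0.56; edgeR adjusted p = 0.306). For the bins from 9 and 27 Mb, observed over expected in NPC was 0.80 and 0.81 times the ES mean with at least 1 read. These ratios were 0.46 and 0.56 with at least 10 reads, and 0.73 and 0.75 with the shared fragments left out.

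**Figure D5:**
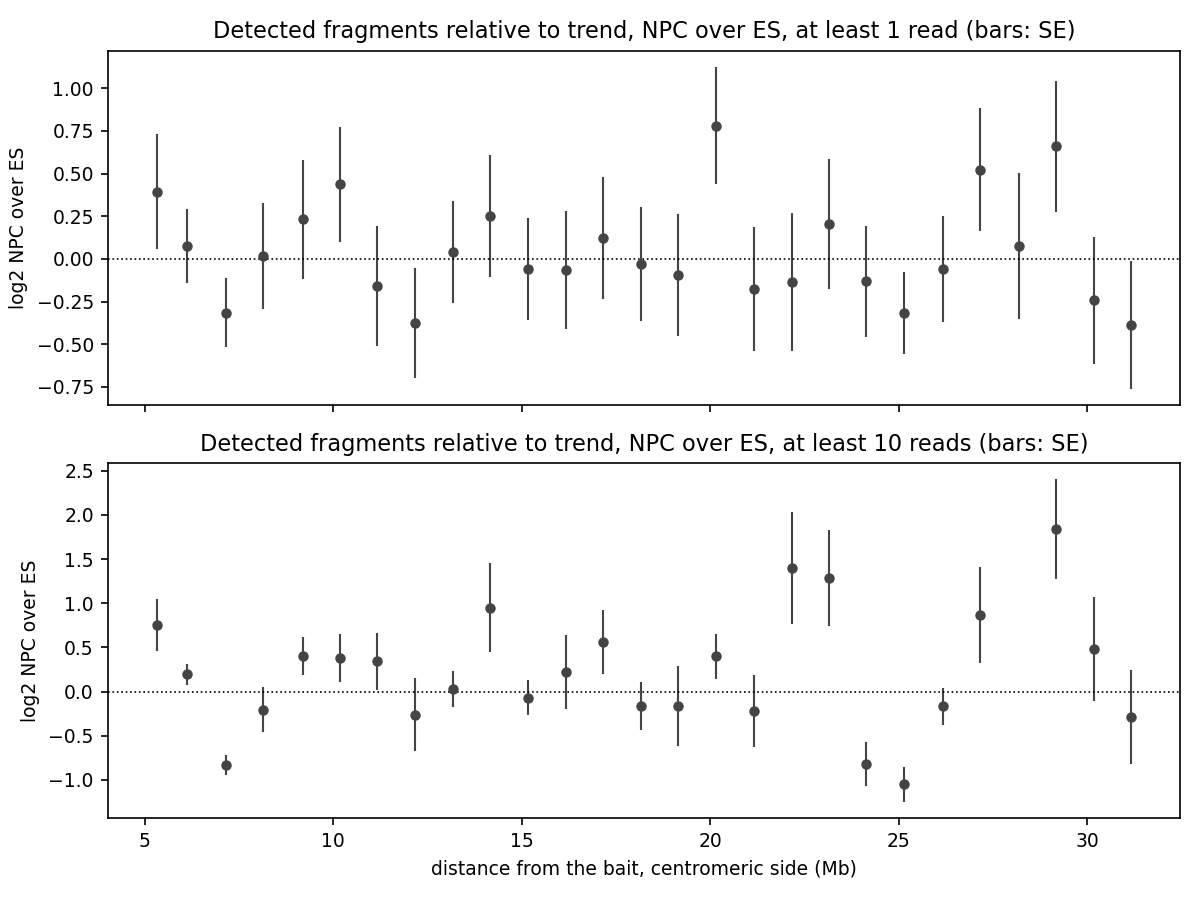
Log2 change of NPC over ES in detected fragments relative to each library's trend (vertical axis; points are 1 Mb bins and bars the SE from the fit) against distance from the bait in Mb (horizontal axis), for fragments with at least 1 read above and at least 10 reads below. The bin at 20.2 Mb is highest above 0 in the upper panel at 0.78, and the bins at 25.1 and 7.16 Mb stand at -1.05 and -0.83 in the lower panel.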

How the data were processed

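After removing the bait sequence with up to 2 mismatches, the authors aligned the 27 nt that followed to mm9. The submitters' processing notes name bcl2fastq and Bowtie 1.0.0. What they deposited are whole-number read counts for each DpnII fragment of the chromosome, with no normalization and no molecular identifiers. Every deposited midpoint matched an mm9 fragment; genes are those of GENCODE vM1.

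Shares were fitted per library and side by a binomial model on log10 distance (statsmodels 0.14.6, Python 3.11.15) in bins holding at least 500 fragments per Mb; the last bin is partial. Detected fragments and read sums per bin were tested with edgeR 4.0.16 (R 4.3.3, quasi-likelihood, trend as offset). Bins needed at least 10 over the 3 libraries, and the Benjamini-Hochberg threshold was 0.05. DESeq2 1.42.0, without the trend, was an alternative. The edgeR test and the trend rule were tested on simulated data. The SE is the log2 change over the square root of F. Members, lists and tests were chosen with earlier results of these data known; leaving out shared fragments, and the minimum of 10 reads in the tests, were chosen after seeing the data. Named are genes of bins above trend in ES cells, of the 3 lowest bins, of the lists and at fragments with reads in all libraries. Alternatives covered bin size and position, trend form, read minimum, unique ends, GTAC sites, depth, scaling, filter, capping and left-out ES replicates. The other 3 libraries were not used.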

Additional observations from a re-analysis of the deposited data

How the results depend on the processing

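Of 166 values of observed over expected share for called bins under alternatives, 0 crossed 1 and 32 lay beyond the spread. ES bins above trend numbered 7 at 0.5 Mb and 5 with bins shifted by 0.5 Mb, against 3, and 4 to 5 without 1 ES replicate. The bin from 8 Mb was lost, leaving 2, with a monotonic trend, on GTAC fragments and with shared fragments left out. ES bins below trend numbered 2 at 0.5 Mb, 2 with a monotonic trend, 1 on GTAC fragments, 1 with at least 10 reads, 2 with shared fragments left out and 7 without either ES replicate, against 4. NPC bins above trend numbered 4 with a monotonic trend, 4 with the trend of both sides, 4 on GTAC fragments, 4 with at least 2 reads and 3 with at least 10, against 7. NPC bins below trend numbered 8 at 0.5 Mb, 3 with a monotonic trend, 11 with the trend of both sides and 1 with at least 10 reads, against 5. The causes were not tested.

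The detected share was 1.20%, 0.574%, 2.24%, 2.16% and 1.27% in NPC with at least 2 reads, at least 10 reads, unique ends, GTAC sites and shared fragments left out. ES replicate 1 had 0.552%, 0.311%, 1.13%, 1.21% and 0.402%, and 0.731% when thinned to 121021 reads. ES replicate 2 had 0.925%, 0.662%, 1.71% and 1.63% under the first 4. Likeness of NPC to the ES mean was r = 0.68 with at least 10 reads and 0.72 with shared fragments left out, against 0.88, and that of the ES replicates 0.69 with shared fragments left out, against 0.82.

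On reads scaled by library totals with no trend, 3 bins (from 9, 22 and 27 Mb) were lower in NPC, against 0. Of all 148 distant bins 4 were lower and 1 higher at that setting. For the reads of the bin from 15 Mb the log2 change of NPC over ES was -0.089 with DESeq2, against 1.61. Its sign thus turned, with the distance trend dropped as well as the tool changed. No paired analysis was possible because NPC has 1 library. With 1 ES library left there are no residual degrees of freedom, so no test was run without an ES replicate. At least 10 reads lay on 219 to 466 members per library, so single bins held few such fragments.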

Other observations

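Longer fragments were detected more often. Members under 100 bp stood at 0.66 times the expected share in NPC, 0.69 in ES replicate 1 and 0.58 in ES replicate 2, and members of 1000 bp or more at 1.58, 1.43 and 1.49. Members that hold a GTAC site, the site cut by Csp6I, were detected at 2.16% in NPC, 1.21% in ES replicate 1 and 1.63% in ES replicate 2, and members without one at 1.44%, 0.647% and 1.07%.

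The zone of Armc1, Mtfr1 and Pde7a, about 15 Mb from the bait, had no call in ES cells at 1 Mb and yet high gene windows. Around Pde7a, which encodes a cAMP phosphodiesterase, 21 of 676 fragments were detected in NPC, 14 in ES replicate 1 and 19 in ES replicate 2, or 1.76, 2.33 and 2.18 times the expected share. Around the Sirpb1b gene the counts were 3 of 739 in NPC, 1 in ES replicate 1 and 4 in ES replicate 2, or 0.26, 0.18 and 0.50 times. These genes were chosen after their values were seen.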
